A study of Mus musculus with 7 samples.

Results

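The chaperones and co-chaperones of the endoplasmic reticulum were followed in mouse prostate that expresses the active domain of Notch1. The group has 10 genes, Hspa5, Hsp90b1, Hyou1, Calr, Canx, Dnajc3, Dnajb9, Dnajb11, Sdf2l1 and Dnajc10. They were chosen by name, and with it known from earlier work on these arrays that such genes were lower in PB-NICD, and each was measured by every non-control probe whose accession maps to it. Of these, 9 genes had probes, 21 in all, among 11841 named genes tested. Dnajb11 had no matching probe, so its expression was not analysed here and only its promoter was read.

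Total RNA of whole prostate from C57Bl/6 mice was hybridised on 7 Agilent arrays with 2 colours. The 3 PB-NICD samples came from ARR2PB-Cre;ROSA(N1IC) mice, where Cre, driven in the prostate by ARR2PB, turns on expression of the active Notch1 domain inserted at ROSA, and which per the labels form prostatic intraepithelial neoplasia. Control tissue, 4 samples, was from ROSA(N1IC) mice labelled as wild-type for the domain, so the silent ROSA allele is shared by both groups. The labels give no ages and do not say whether a sample is 1 animal or a pool, so the spread between samples may be partly technical. A value is the log2 ratio of sample (red) over a universal mouse reference RNA (green), and differences run as PB-NICD minus control. The ratios of different probes are not compared with each other.

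Reticulum chaperones bind proteins as they enter the secretory pathway and hold them until they are folded. Hspa5 (BiP) is the central one: it binds unfolded chains in a cycle driven by ATP, J-domain proteins bring it clients, and Hyou1 exchanges its nucleotide. Calr and Canx hold glycoproteins by their sugars, and Hsp90b1 acts on a set of later folding intermediates. When unfolded proteins build up, the sensors Atf6, Ern1 and Eif2ak3 raise these genes, Atf6 partly through a promoter element named ERSE. The prostate epithelium is a secretory tissue and carries much of this machinery.

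On all 7 arrays every member probe was well above background in the sample channel. Spots marked as outliers by the scanner software were left out of means and differences. They made up 36 of the 147 member spots, 12 of them on control 3 and none on control 4. Values listed by array include marked spots, a choice made after the values were seen. PB-NICD 1, control 1 and control 2 shared slide 1, and the other 4 arrays shared slide 2, so slide 1 held only 1 PB-NICD array. The sample channel was dim: 53.3% to 66.8% of probes were well above background on PB-NICD arrays and 44.9% to 60.8% on control arrays, with no saturated spot. Across 10408 items r was 0.945 to 0.954 among the PB-NICD arrays and 0.927 to 0.962 among the control arrays, across genes that are not independent replicates. The prostate secretory gene Pbsn was well above background on every array. Genes of the seminal vesicle set the slide 1 arrays apart: Svs4 read 5.75 on PB-NICD 1 and 2.36 and 9.39 on control 1 and control 2, against 0.71 and 0.66 on PB-NICD 2 and PB-NICD 3 and -0.02 and -0.28 on control 3 and control 4. Svs5 read 6.88 on PB-NICD 1 and 3.79 and 8.35 on control 1 and control 2, and at most 1.69 on any slide 2 array.

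The labels were checked on Notch1 and its targets. Notch1 read 2.47, 2.63 and 2.74 on PB-NICD 1 to PB-NICD 3, against 0.05, 0.30, 0.84 and 0.67 on control 1 to control 4. Heyl, a target gene and repressor, read 2.75, 2.79 and 2.60 in PB-NICD, against -0.23, -0.14, -0.22 and -0.03 in control. All 3 PB-NICD arrays lay above all 4 controls for both genes, and likewise for Hes1 and Nrarp. Not every listed target rose. Of 11 tested genes in the Notch list, 6 passed as higher (limma, adjusted p under 0.05), against 3.57% of all items, and 0 as lower. The others did not pass, 4 with negative differences and 1 with a positive one. The Notch1 spot of PB-NICD 1 was marked as an outlier. Nothing in the labels or files says whether this probe matches the transgene, so it checks the labels only if it does.

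All 9 measured members were lower in PB-NICD, by 0.68 to 2.58 on the log2 scale, with a median difference of -1.87 against -0.03 over all 16956 items tested. For each gene, by its brightest tested probe, every PB-NICD array lay below every control array. With limma and Benjamini-Hochberg adjustment at 0.05, 9 of 9 members passed as lower, where 5.08% of all items did and 8.65% passed in either direction. With median centring in place of loess, 6 members passed, and over all items 285 passed as lower and 4304 as higher, with an all-item median of 0.27. With that setting the differences shrank by more than 1.5 times for Hsp90b1 (-0.53), Hyou1 (-0.57), Calr (-0.41), Dnajc3 (-1.27), Dnajb9 (-1.06), Sdf2l1 (-1.40) and Dnajc10 (-1.71), while Hspa5 was at -1.83 and Canx turned to 0.17. Non-overlap of the groups in this direction was found for 13% of all items. Because the members were proposed with this contrast known, these counts describe the genes and nothing is read from them. In bulk tissue, fewer cells of a type and less RNA per cell cannot be told apart.

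**Figure D1:**
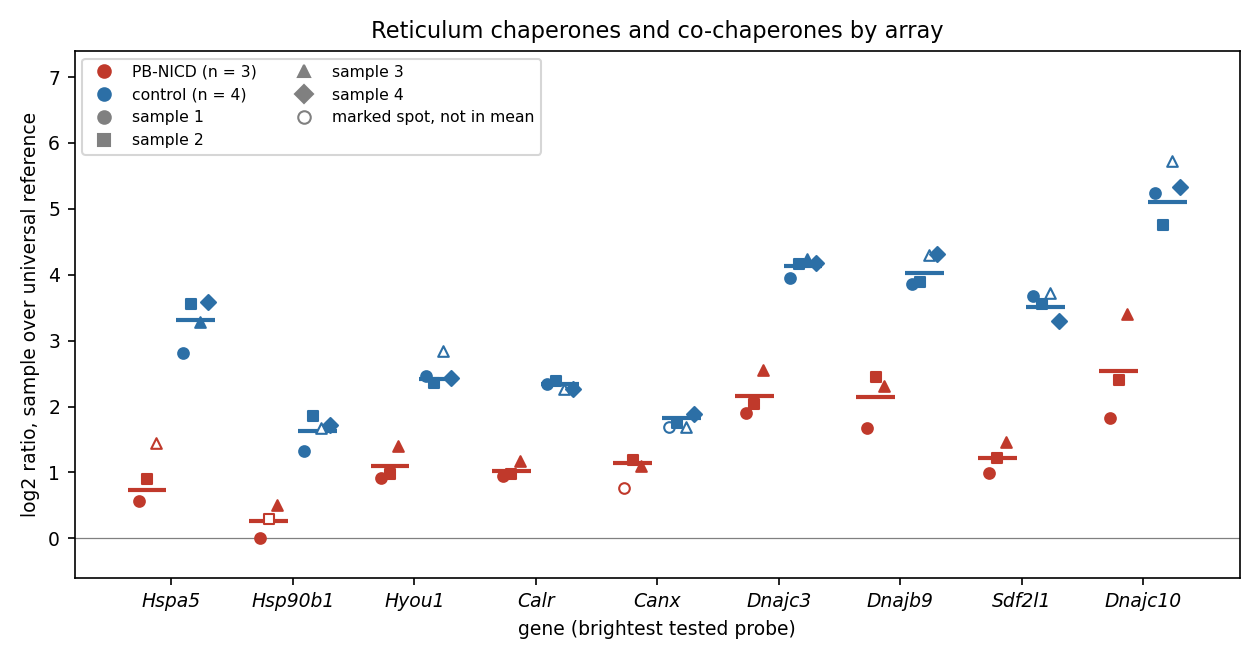
Log2 ratio of sample over reference (vertical axis) for the brightest tested probe of each of 9 genes (horizontal axis), PB-NICD in red (n = 3) and control in blue (n = 4). Each point is 1 array, open points are marked spots, and lines are group means without marked spots. All 3 PB-NICD points lie below all 4 control points for every gene.

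Hspa5 read 0.57, 0.90 and 1.44 on PB-NICD 1 to PB-NICD 3, against 2.81, 3.56, 3.29 and 3.58 on control 1 to control 4. The highest PB-NICD array stayed well under the lowest control. The difference was -2.58 ± 0.22 (SE) with the marked spot of PB-NICD 3 left out, or 5.96-fold lower, and -2.34 ± 0.23 with it kept.

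Hyou1, the large Hsp70-like protein that renews Hspa5 for the next round, read 0.92, 0.98 and 1.39 in PB-NICD, against 2.46, 2.36, 2.85 and 2.44 in control. Its difference was -1.32 ± 0.15 (SE), without control 3, whose spot was marked. The group means differed by several times the spread among arrays of either group.

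Among the J-domain co-chaperones that deliver clients to Hspa5, Dnajc10 had the largest difference. This protein is also a reductase of disulfide bonds. It read 1.83, 2.40 and 3.40 in PB-NICD, against 5.24, 4.76, 5.73 and 5.33 in control. The difference was -2.57 ± 0.34 (SE), without control 3. Its PB-NICD arrays were also the most scattered of the 9 genes, with an SD of 0.79 (n = 3), against 0.31 (n = 3) in control. All 4 of its probes were lower, by 2.14 to 2.97 with marked spots kept.

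Dnajc3 (p58IPK), which also restrains the kinase Eif2ak3, read 1.91, 2.03 and 2.56 in PB-NICD, against 3.95, 4.17, 4.24 and 4.18 in control, with no spot marked. Its difference was -1.97 ± 0.16 (SE). With marked spots kept, its 4 probes gave -1.97 to -2.38. The probe at -2.38 had 5 marked spots and was not among the tested probes. With marked spots kept, these 4 probes covered the narrowest range of any gene with more than 2 probes.

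Dnajb9 (ERdj4), which aids the clearance of misfolded proteins and returns Hspa5 to the sensor Ern1, read 1.68, 2.45 and 2.31 in PB-NICD, against 3.87, 3.89, 4.30 and 4.31 in control. The difference was -1.87 ± 0.21 (SE), without control 3. The other 2 probes were lower by less, -1.17 ± 0.38 and -1.23 ± 0.40, and their control arrays were more scattered, with SDs of 0.72 and 0.86 (n = 4).

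Sdf2l1, a small partner of the J-domain proteins that keeps Hspa5 clients soluble, read 0.99, 1.22 and 1.46 in PB-NICD, against 3.68, 3.55, 3.72 and 3.30 in control. The difference was -2.29 ± 0.16 (SE), without control 3, or 4.87-fold lower. The gap between the nearest arrays of the groups was larger than the range within either.

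Hsp90b1 (GRP94), the Hsp90 of the reticulum, read 0.01, 0.29 and 0.50 in PB-NICD, against 1.33, 1.85, 1.67 and 1.72 in control. The difference was -1.38 ± 0.21 (SE), without PB-NICD 2 and control 3, and the second probe gave -1.29 ± 0.20. Both probes separated the groups.

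The lectin chaperones had smaller differences. Calr, the soluble one, read 0.95, 0.97 and 1.17 in PB-NICD, against 2.35, 2.39, 2.27 and 2.27 in control. Its difference was -1.31 ± 0.12 (SE), without control 3, and a second probe gave -1.45 ± 0.13 with marked spots kept. The control arrays of Calr lay within an SD of 0.06 (n = 3).

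Canx, its counterpart anchored in the membrane, had the smallest difference. It read 0.77, 1.18 and 1.09 in PB-NICD, against 1.69, 1.75, 1.68 and 1.89 in control. The difference was -0.68 ± 0.15 (SE), without PB-NICD 1, control 1 and control 3. Its other probes gave -0.52 ± 0.14 and, with marked spots kept, -0.19 ± 0.11. For the last of these the groups overlapped, PB-NICD at 1.38, 1.28 and 1.16 and control at 1.50, 1.35, 1.60 and 1.42. With marked spots kept, it was the only 1 of 21 member probes whose groups overlapped. The gap was narrow on another Canx probe, with the highest PB-NICD array at 0.75 and the lowest control at 0.80. It was also narrow on the other probes of Dnajb9, at 2.06 against 2.07 and at 1.36 against 1.42.

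**Figure D2:**
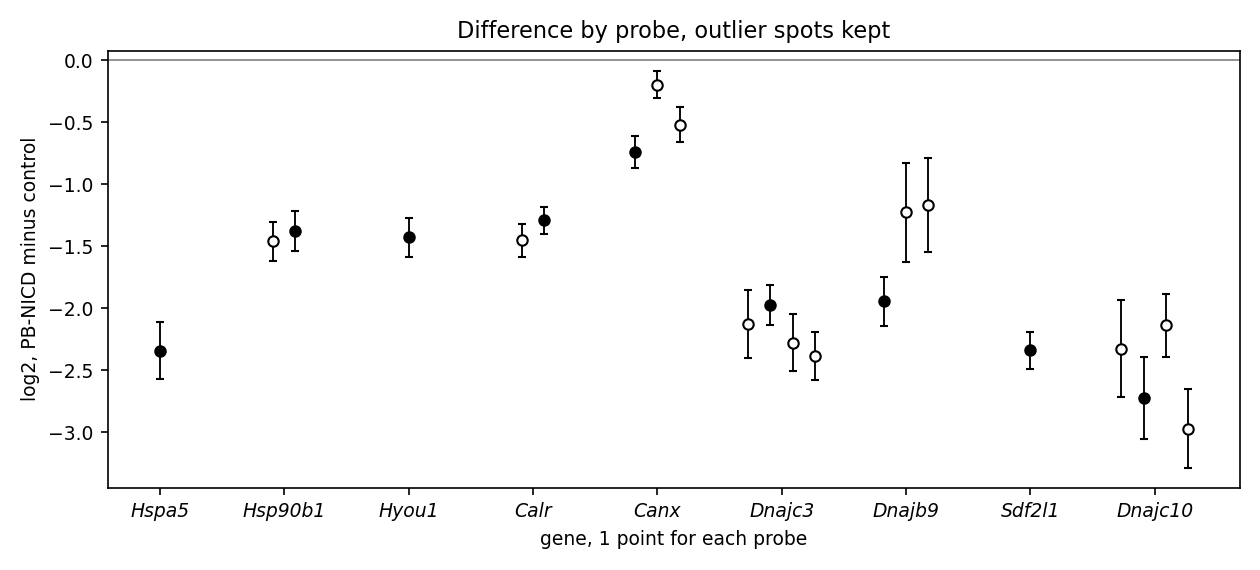
Difference PB-NICD minus control on the log2 scale (vertical axis) for each of the 21 probes, grouped by gene (horizontal axis), with marked spots kept. Filled points are the brightest tested probe and bars are SE. The 3 Canx probes lie nearest to 0, and the lowest point, at -2.97, is a Dnajc10 probe.

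The differences came from the sample channel. The channels were read after loess and Aquantile scaling, here with marked spots kept. The sample channel of the 9 members differed by -2.64 to -0.94 on the log2 scale, and the reference channel by -0.20 to 0.18. Canx had the largest shift of the reference channel in size, and it ran in the same direction as its sample channel.

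Relative to the control mean, with marked spots kept, the median member deviated by -2.23, -1.64 and -1.58 on PB-NICD 1, PB-NICD 2 and PB-NICD 3. By the brightest tested probe, PB-NICD 1 had the lowest value of the 3 for all 9 genes. By the same probes, PB-NICD 3 had the highest value for 7 genes and PB-NICD 2 for 2. The order was not shared by all probes: another array was lowest on some other probes of Hsp90b1, Canx, Dnajc3 and Dnajc10. PB-NICD 1 was lowest on the other probes of Calr and Dnajb9 and on the rest of those of Dnajc3 and Dnajc10. Within slide 1, where PB-NICD 1 is the only array of its group, the median difference with marked spots kept was -2.15. Within slide 2 it was -1.92, and every member was lower in PB-NICD on either slide. PB-NICD 1 and slide 1 cannot be told apart in this order, and PB-NICD 1 is also the PB-NICD array with high Svs4 and Svs5, whose part was not tested.

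**Figure D3:**
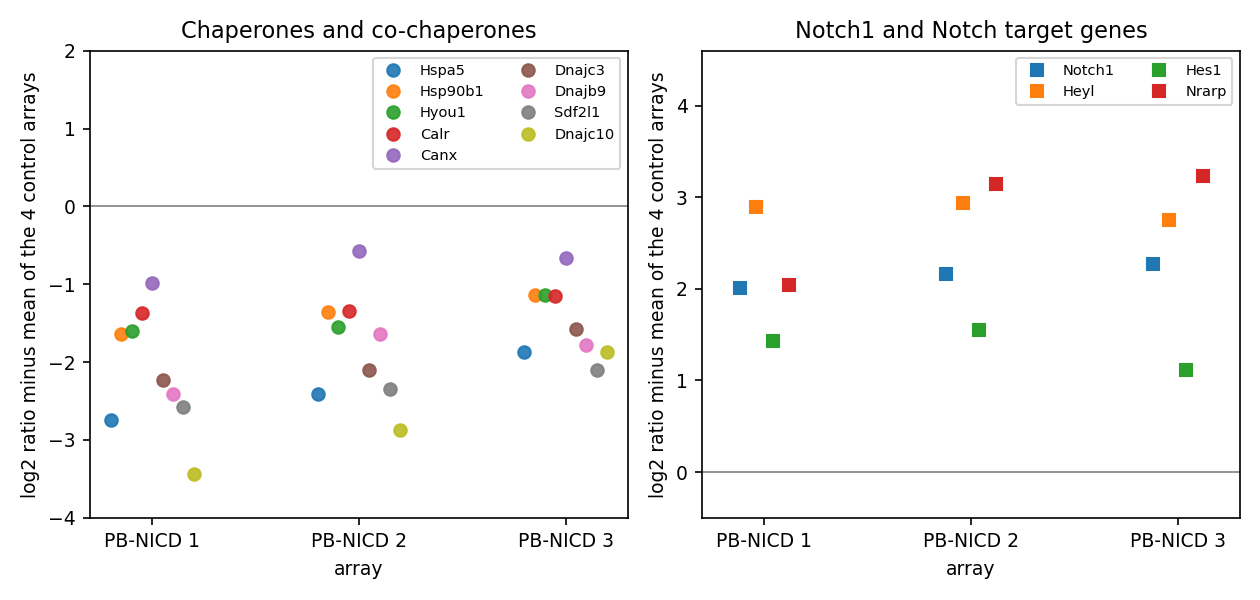
Log2 ratio minus the mean of the 4 control arrays (vertical axis) on each PB-NICD array (horizontal axis), for 9 chaperone genes (left) and for Notch1 and 3 Notch target genes (right). Points are single genes with marked spots kept. The chaperone points lie below 0 and the Notch points above 0 on all 3 arrays.

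The promoters of the members were read for the element ERSE. It was defined from promoters of reticulum chaperones such as Hspa5, so its presence in them is a description and no independent feature. The table of RefSeq promoters (GRCm38.p6) held 9 of the 10 members, all but Hyou1, and the 250 bases before each annotated start were searched on both strands. ERSE, read as CCAAT and CCACG with 9 bases of any kind between them, occurred in 5 of the 9 promoters, those of Hspa5, Hsp90b1, Calr, Canx and Dnajc3. It occurred in 37 of 32851 promoters in the whole table, or 0.113%. On the sense strand alone it was in 4 of the 9, and with 1 mismatch allowed still in 5, against 1.32% of all promoters. The 5 promoters are shown in gene sense around the match, with the fixed letters of ERSE in capitals, because they are the sites by which these genes are alike. An element on the opposite strand reads as CGTGG and ATTGG.
Hspa5, chr2:34772015-34772053, plus strand: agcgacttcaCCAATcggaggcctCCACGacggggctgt
Hsp90b1, chr10:86705523-86705666, minus strand: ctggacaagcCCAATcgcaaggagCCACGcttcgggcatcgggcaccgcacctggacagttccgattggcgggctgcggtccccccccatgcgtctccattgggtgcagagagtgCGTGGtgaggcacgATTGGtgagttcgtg
Calr, chr8:84847065-84847103, minus strand: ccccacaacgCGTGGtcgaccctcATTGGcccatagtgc
Canx, chr11:50325790-50325828, minus strand: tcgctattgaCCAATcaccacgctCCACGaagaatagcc
Dnajc3, chr14:118937817-118937855, plus strand: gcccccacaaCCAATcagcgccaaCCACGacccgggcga
The stretch of Hsp90b1 holds 2 elements, 1 on each strand. The letters CCACG alone were in 7 of the 9 promoters, against 28.3% of all, and CCAAT alone in 8, against 33.8%; both overlap ERSE by construction. ERSE-II, read as ATTGG and CCACG with 1 base between them, and the letters TGACGTGG were in none of the 9, against 0.0304% and 0.563% of all. With 1 mismatch allowed, ERSE-II was in 2 of the 9, Hspa5 and Sdf2l1, against 1.03% of all.

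ERSE was held by members at both ends of the range of differences. Hspa5, with the largest difference when marked spots were left out (-2.58), held it. With marked spots kept, Dnajc10 (-2.72) had a larger difference than Hspa5 (-2.34). Dnajc10, at -2.57 with marked spots left out, held none of these letters in its window. The GC content of its window, 46.4%, was the lowest of the 9. Canx, with the smallest difference, held ERSE. The other 8 windows had 59.6% to 73.6% GC, against a median of 52.4% over all promoters. Of 30 other genes with ERSE, a list added after the values were seen, 12 were tested. Of these, 3 were lower, namely Derl3, Pdia6 and Syvn1, where 5.08% of all items were lower. All 3 are also in the lists of reticulum genes given below, which were drawn up with earlier results known. The other tested genes with ERSE did not pass, 6 with negative and 3 with positive differences. The list median was -0.14, against -0.03 over all items. Whether ERSE goes with the differences was not tested.

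**Figure D4:**
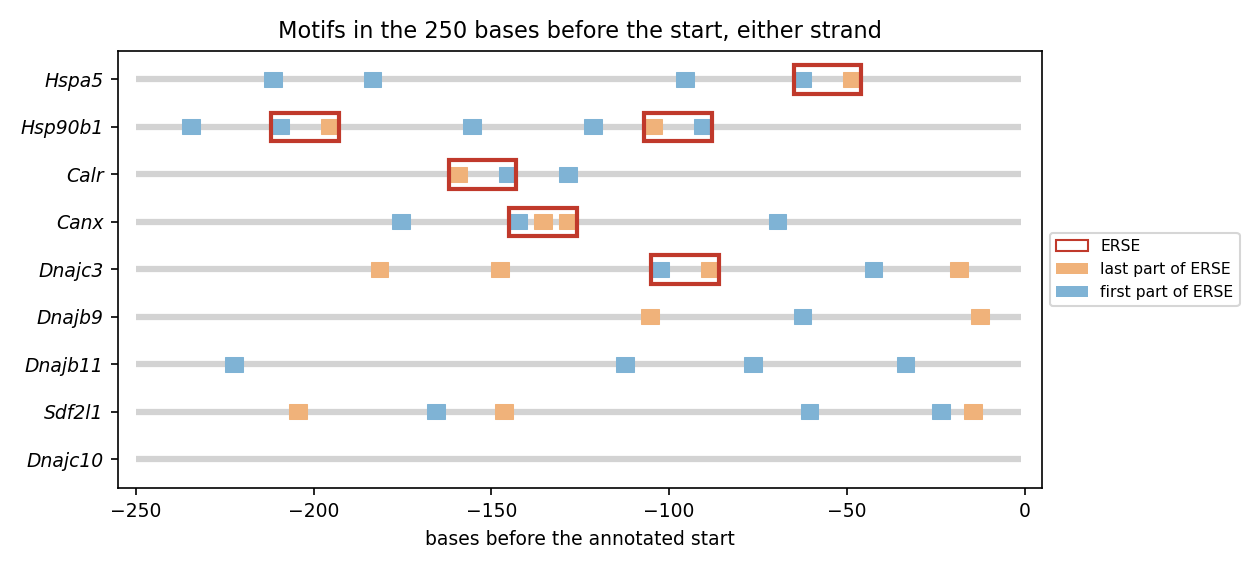
Matches in the 250 bases before the annotated start (horizontal axis, bases from the start) of 9 member promoters (vertical axis), on either strand. Outlined boxes are ERSE, orange boxes its last part (CCACG) and blue boxes its first part (CCAAT); ERSE is present in 5 promoters and Dnajc10 shows no match.

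Other genes of the reticulum were described by 4 lists, which like the members were drawn up with earlier results of these arrays known. Of 75 genes tested in them 32 fell and none rose, against 5.08% of all items lower and 3.57% higher. Leaving out PB-NICD 1 gave 21, as did leaving out PB-NICD 2. With median centring, which moved the median of all items to 0.27, 10 fell and 11 rose.

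Among other folding factors, 11 of 21 fell, with a median difference of -0.52. Fkbp11, a peptidyl-prolyl isomerase of secretory cells, read 0.72, 0.53 and 1.12 in PB-NICD, against 4.35, 4.02, 4.25 and 3.85 in control. It fell by 3.33 ± 0.17 (SE; limma adjusted p = 3.53e-06), more than any member. Manf, a secreted factor that binds Hspa5, fell by 1.41 ± 0.14 (limma adjusted p = 0.000229), and the cyclophilin Ppib by 1.04 ± 0.14 (limma adjusted p = 0.00112).

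Among disulfide isomerases and oxidases, 5 of 16 fell, with a median of -0.39. Agr2, which serves mucin folding in the gut, read 0.65, 0.33 and 1.12 in PB-NICD, against 4.18, 3.98, 4.00 and 3.82 in control, and fell by 3.20 ± 0.22 (SE; limma adjusted p = 9.88e-05). The isomerase Pdia6 fell by 1.06 ± 0.15 (limma adjusted p = 0.00158), and P4hb by 1.30 ± 0.16 (limma adjusted p = 0.00183). Agr2 stood far below the rest of this list.

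In the list for degradation of reticulum proteins, 11 of 19 fell, with a median of -0.57. Derl3, a channel component for the export of misfolded proteins, fell by 2.86 ± 0.15 (SE; limma adjusted p = 5.27e-06). Edem1 and Edem2, which trim sugars on proteins bound for degradation, fell by 1.64 ± 0.13 (limma adjusted p = 5.23e-05) and by 1.40 ± 0.14 (limma adjusted p = 0.000342).

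Of the sensors and factors of the unfolded protein response, 5 of 19 fell, with a median of -0.29. The transcription factor Atf4 fell by 1.24 ± 0.15 (SE; limma adjusted p = 0.00081), the sensor Eif2ak3 by 0.86 ± 0.14 (limma adjusted p = 0.0047) and the sensor Atf6 by 0.69 ± 0.13 (limma adjusted p = 0.00715). Xbp1, the factor that Ern1 activates by splicing, differed by -0.31 and did not pass. The array does not read the splicing of Xbp1.

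Chaperones outside the reticulum were counted too, where 5.08% of all items passed as lower and 3.57% as higher. Of 21 cytosolic chaperones tested none fell and 1 rose, the small heat shock protein Hspb1, by 0.72 ± 0.15 (SE; limma adjusted p = 0.013), and their median was -0.12. Of 9 mitochondrial chaperones, 2 fell, the co-chaperones Grpel1 (-0.61) and Dnajc19 (-0.63), with a median of -0.17. These 3 genes were singled out after their values were seen. The difference between the lists was not tested.

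**Figure D5:**
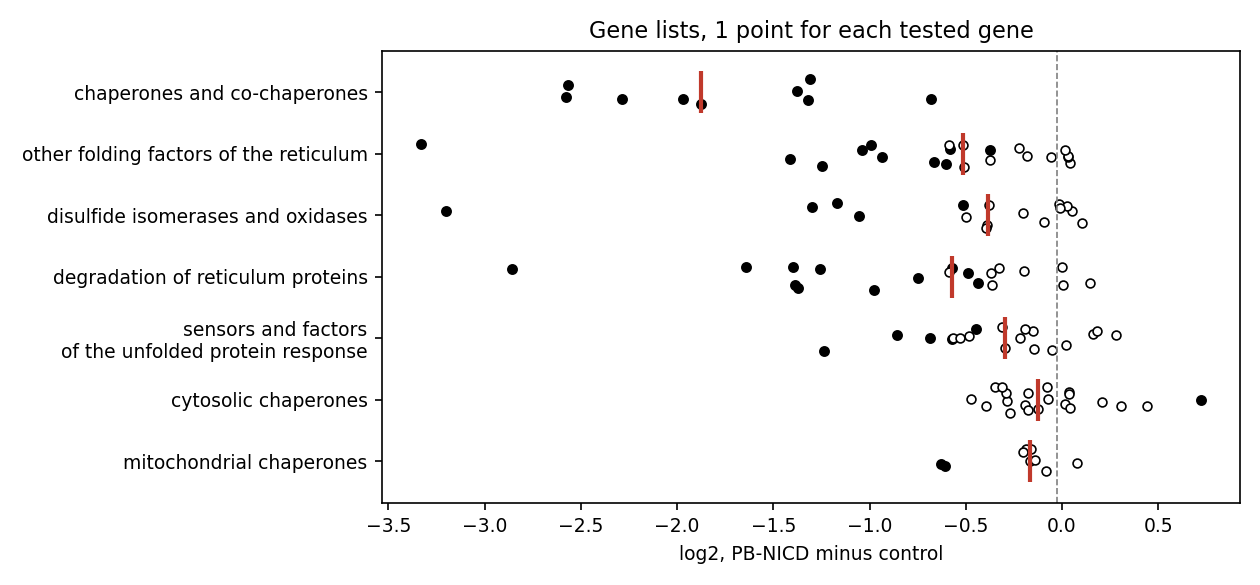
Difference PB-NICD minus control on the log2 scale (horizontal axis) for each tested gene of 7 lists (vertical axis). Filled points passed the adjusted threshold of 0.05, red lines are list medians and the dashed line is the median of all items, -0.03. The medians run from -1.87 for chaperones and co-chaperones to -0.12 for cytosolic chaperones.

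The genes with the profile nearest to the mean of the members were sought among 7553 named genes measured on all 7 arrays, each set to its control mean. The distance is the root mean square of log2 values over the arrays. Nearest were Mcfd2, a partner of the cargo receptor Lman1, at 0.08, and Edem1 at 0.13. Then came the lysosomal sialidase Neu1 at 0.15, the aldose reductase Akr1b3 at 0.16 and the cyclooxygenase Ptgs1 at 0.18. Mcfd2 deviated by -2.23, -1.73 and -1.56 on PB-NICD 1 to PB-NICD 3, where the mean of the members deviated by -2.11, -1.80 and -1.48. The members themselves lay at 0.13 (Dnajc3) to 0.71 (Canx).

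Markers of the cells in the tissue were read beside the members. The summed sample channel (log2) of 9 tested genes listed as prostate secretory proteins was 17.62, 17.40 and 18.65 in PB-NICD, against 20.02, 19.61, 19.21 and 19.59 in control, so the groups did not overlap. Within this list, which also holds the seminal vesicle genes Svs4 and Svs5, 2 fell, 1 rose and the median was -0.49. The genes that fell were Sbp, the spermine-binding protein, and its relative Sbpl, and the gene that rose was the peptidase Mme, by 2.91. Sbp read 2.38, 4.75 and 9.44 on PB-NICD 1 to PB-NICD 3, against 11.49, 10.38, 10.12 and 9.50 in control. Sbpl read 1.71, 0.96 and 7.17 in PB-NICD, against 9.56, 8.56, 8.47 and 8.28 in control. The PB-NICD arrays did not share 1 order across the genes of this list. Of this list, Svs3a stood out from background on none of the 7 arrays.

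The summed levels of luminal markers overlapped, at 16.50 to 16.65 in PB-NICD and 16.34 to 16.60 in control, with 1 of 12 lower and 1 higher. Basal markers were at 12.87 to 13.00 in PB-NICD and 13.48 to 13.63 in control, with 3 of 8 lower. Urothelial markers were at 12.19 to 14.22 in PB-NICD and 10.44 to 11.09 in control, through Upk3a, which rose by 5.11 ± 0.42 (SE; limma adjusted p = 0.000515), while Upk1b and Upk2 differed by -0.56 and 0.00. Smooth muscle, fibroblast, leukocyte and endothelial sums overlapped between the groups, and the neutrophil genes S100a8 and S100a9 stood out from background on none of the 7 arrays.

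Plasma cells carry much reticulum too. Their list summed to 12.25 to 12.55 in PB-NICD and 13.75 to 14.04 in control, with 2 of 8 lower, Derl3 and Fkbp11, which the reticulum lists also hold, and 1 higher, Sdc1. The plasma cell genes Jchain and Mzb1 differed by -0.49 and -0.31 and did not pass, and Tnfrsf17 and Prdm1 were not well above background on any array. The part of the secretory, basal, urothelial and plasma cell values in the lower chaperone levels was not tested.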

How the data were processed

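RNA of 3 PB-NICD and 4 control prostate samples was read on 2-colour arrays against a common reference, without dye swap, so dye effects per probe are shared. Per the file headers, spot and local background intensity (median pixel signals, not normalized) came from Agilent Feature Extraction 10.7.3.1. The deposited LogRatio is the log10 of red over green processed intensity. The authors' deposited value table is on a log2 scale. How it was normalized is not stated in the labels or headers; every column matched its own array (r = 0.989 to 0.995).

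Background was corrected by normexp with an offset of 50, then loess within arrays, in limma 3.58.1 under R 4.3.3. In the first fit, 6 spots on PB-NICD 1 and 3 on control 3 lay more than 20 units below their local background. Those on PB-NICD 1 made the normexp fit of that array fail and flattened its ratios. On control 3 the noise estimate of the red channel was 12.1 units with all spots, against 1.52 without its 3 spots. These 9 spots, none of a member, were therefore left out; this was decided after results were seen, and the fit with all spots is kept as an alternative. Control spots had weight 0 in loess, outlier spots were set to missing, and spots of a probe were averaged. The 45018 spots gave 41174 probes, of which 24375 got a symbol by accession through RefSeq (GRCm38.p6). A probe was tested if well above background in the sample channel on at least 3 arrays, with at least 2 values per group. The brightest tested probe stood for a gene. PB-NICD and control were compared by lmFit and eBayes with Benjamini-Hochberg adjustment over 16956 items at 0.05, two-sided. The fit was tested on simulated data. The number of arrays limits the precision, and the offset draws dim ratios towards 0.

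The members and lists were chosen with earlier results of these data known. Named genes are all members, of each reticulum list the 3 with the lowest p, the 5 nearest profiles, Notch1, Heyl, Hes1 and Nrarp, and cell type markers not above background on any array. Syvn1, Xbp1, Hspb1, Grpel1, Dnajc19, Pbsn, Sbp, Sbpl, Mme, Svs4, Svs5, Upk3a, Upk1b, Upk2, Jchain, Mzb1 and Sdc1 fall outside this rule and were named after their values were seen. Other settings tried are given in the closing section. Replicate numbers 1 to 3 recur in both groups. Protein features were not analysed here.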

Additional observations from a re-analysis of the deposited data

How the results depend on the processing

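Over 26 other settings, the 9 members gave 233 values, of which 1 changed direction: Canx, at 0.17 with median centring. The median member difference (-1.87) was -1.06 with median centring, -1.38 with the mean over the probes of a gene and -2.18 within slide 1, and -1.96 to -1.64 with 1 array left out. Set against the all-item median of each fit, it was -1.33 with median centring and -1.85 as reported. Members passing as lower (9) were 8 to 9 with 1 array left out and 6 with median centring.

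Calls over all items (1466, 58.7% of them lower) numbered 4589 with median centring (6.21% lower), 3524 in the authors' value table, 877 in the sample channel alone (46.9% lower), 871 within slide 1 (845 with marked spots kept), 869 within slide 2, 2052 with slide as a fixed block, and 851 to 1481 with 1 array left out, the lowest without PB-NICD 2. Reticulum genes that fell (32) numbered 44 in the authors' value table, 41 with slide as a fixed block, 37 with marked spots kept, 10 with median centring, 21 in the sample channel, 17 within slide 1 (19 with marked spots kept), and 21 to 28 with 1 array left out.

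With all spots in the normexp fit, an alternative added after the data were seen, there were 458 calls (84.9% lower), 17 reticulum genes fell and the member median was -2.14. The noise estimate of the red channel on PB-NICD 1 was then 344 units, against 1.87 without the 6 spots, and its Notch1 ratio was 0.64, against 2.47. The cause of the other shifts was not tested.

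Deviations of same-numbered arrays correlated at 0.32, -0.24 and 0.08 for numbers 1 to 3 (10408 items). Same-numbered arrays shared a slide for numbers 1 and 3 but not for number 2. These values therefore cannot tell whether the replicate numbers pair the samples. Deviations followed the slide: PB-NICD and control arrays correlated at 0.08 to 0.36 within a slide and at -0.38 to -0.13 across slides. With slide as a fixed block the member median was -2.01, with 9 members lower. With a replicate block the member median was -1.81, with 8 members lower, 1132 calls, and 21 reticulum genes lower. No control group of 4 values had a member probe with a stray array among 8 tested.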
